A study of Mus musculus with 12 samples.

Results

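The 8 genes described here, Cd40, Cd80, Cd86, Icosl, Cd274, Cd83, Cd69 and Slamf7, encode surface molecules through which an activated macrophage speaks to lymphocytes. They were taken by gene name as a list of costimulatory, checkpoint and activation molecules, drawn up with earlier results of these data known, and all 8 were found among the 24346 genes of the deposited table. They were followed in RNA sequencing libraries of wild-type (WT) mouse bone-marrow-derived macrophages, cells that had been differentiated from marrow with the growth factor M-CSF over 7 days in medium with 10% serum. The 4 groups of 3 libraries were control (no treatment), LPS (bacterial lipopolysaccharide, which TLR4 recognises, for 3 h and at 1 ng/ml), tunicamycin (5 ug/ml), and tunicamycin for 3 h followed by that LPS treatment. Tunicamycin inhibits N-linked protein glycosylation and so causes stress of the endoplasmic reticulum (ER), and the study's title names the effect of ER stress on inflammation as its question. No source used here gives the strain or age of the mice, how long tunicamycin alone was left on the cells, or whether replicates were separate animals or cultures. The p-values therefore measure only the spread between these libraries, which may be technical.

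A T cell needs a second signal beside its antigen receptor, and macrophages and dendritic cells give it through ligands of the B7 family. CD80 and CD86 bind the activating receptor CD28 and the inhibitory receptor CTLA-4, ICOSL binds ICOS, and PD-L1, the product of Cd274, binds the inhibitory receptor PD-1. CD40, a receptor of the TNF receptor family, receives the T cell's reply through CD40 ligand and signals through TRAF adaptors to NF-kB, a transcription factor that TLR4 also activates. CD83, CD69 and SLAMF7 are surface proteins widely used as signs of activation. All of these proteins are glycoproteins made in the ER, but the values below are transcript levels and say nothing of the protein at the surface.

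Values are FPKM, a fragment count divided by transcript length and library total, so that levels of different genes can be set side by side per length. Read depth is unknown, since the table holds no counts, and the summed FPKM ran from 561108 to 685010 per library. Differences were tested with limma on log2(FPKM + 1) over the 10311 genes at 1 FPKM or more in at least 3 libraries, and a gene passed at an adjusted p under 0.05. All 8 members met that filter, 6 of them at 1 FPKM or more in all 12 libraries and Cd80 and Cd69 in 10. Folds were computed after adding 1 FPKM, which understates the change of genes near 0, and errors after ± are SE for log2 differences and SD (n = 3) for levels. The 10 macrophage markers were all expressed and summed to 15878 to 20602 FPKM in controls, 19180 to 24072 with LPS, 19605 to 23145 with tunicamycin and 15535 to 24337 with both, most of it Lyz2 (group means of 11380 to 16199). Of the 10, 0 rose and 1 fell with LPS, 1 rose and 4 fell with tunicamycin, and 0 rose and 3 fell with both against LPS. The shares of all tested genes in these comparisons were 10.5%, 17.9% and 13.8% rising and 7.86%, 16.6% and 15.1% falling. Group means with control, LPS, tunicamycin and both were 4298, 4253, 2886 and 3201 FPKM for Cd68, 32.7, 26, 14.1 and 11.4 for Fcgr1, and 501, 537, 545 and 591 for Csf1r. Markers of other cells that use these molecules were low: Ms4a1 and Pax5 of B cells and Ncr1 and Klrb1c of NK cells were listed at 0 in all libraries, and the 9 T and NK cell markers in the table summed to at most 3.2 FPKM in any library. Cd79b of B cells was not at 0, with group means of 1.97, 1.22, 1.58 and 0.39 FPKM with control, LPS, tunicamycin and both, and a highest value of 3.12. Of 10 dendritic cell markers 5 stayed under 1 FPKM, and the 10 summed to 1.84 to 6 FPKM in controls, 15.3 to 29.7 with LPS, 2.02 to 4.22 with tunicamycin and 12.9 to 18.1 with both. Most of the rise with LPS lay in Ccl22 (group means of 0.463 in controls and 12.9 with LPS) and Ccr7 (0 and 3.27). Zbtb46 (0.165 and 1.17) and Xcr1 (0.29 and 1.36) were also higher, and Itgax was at 2.67 and 2.56. Neutrophil markers (9 of 10 in the table) summed to 105 to 146 FPKM in controls, 219 to 348 with LPS, 28.6 to 49.1 with tunicamycin and 33.8 to 48.9 with both. Stromal markers (8 of 8) summed to 15.7 to 20.2, 19.5 to 24.9, 29.99 to 50.9 and 26.1 to 61 FPKM in the same order. Of 7 neutrophil markers tested, 3 rose with LPS, 3 fell with tunicamycin and 5 fell with both against LPS, with 0 opposite calls. Of 6 stromal markers tested, 4 rose with tunicamycin and 2 with both against LPS, and 0 fell. The part of such cells, or of the shifts in macrophage markers, in the results below was not tested, and in bulk RNA fewer cells of a type and less RNA per cell cannot be told apart.

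Promoter sequences from RefSeq (build GRCm38.p6, 250 bases before to 50 bases after the start site) matched 4 of the 8 members, Cd80, Cd274, Icosl and Slamf7, and none was matched for Cd40, Cd86, Cd83 and Cd69. Cd274 (plus strand, chr19:29367188-29367487) is shown because its response to LPS differed with tunicamycin in the main fit, a call that some alternatives given below lost. Slamf7 (minus strand, chr1:171648950-171649249) and Cd80 (plus strand, chr16:38458683-38458982) are shown because they carry a match to the same motif at the same distance from the start site. Capitals mark the matches.
Cd274: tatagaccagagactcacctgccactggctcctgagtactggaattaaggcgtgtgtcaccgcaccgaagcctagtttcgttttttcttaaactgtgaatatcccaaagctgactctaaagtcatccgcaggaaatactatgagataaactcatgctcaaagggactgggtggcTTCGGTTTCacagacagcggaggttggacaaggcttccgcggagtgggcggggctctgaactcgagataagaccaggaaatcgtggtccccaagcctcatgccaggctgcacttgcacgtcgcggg
Slamf7: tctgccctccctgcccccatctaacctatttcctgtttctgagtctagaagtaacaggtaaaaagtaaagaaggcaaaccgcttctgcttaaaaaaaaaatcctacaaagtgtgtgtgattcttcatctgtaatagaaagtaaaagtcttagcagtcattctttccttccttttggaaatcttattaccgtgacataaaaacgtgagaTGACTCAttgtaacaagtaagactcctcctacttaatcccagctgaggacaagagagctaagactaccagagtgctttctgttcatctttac
Cd80: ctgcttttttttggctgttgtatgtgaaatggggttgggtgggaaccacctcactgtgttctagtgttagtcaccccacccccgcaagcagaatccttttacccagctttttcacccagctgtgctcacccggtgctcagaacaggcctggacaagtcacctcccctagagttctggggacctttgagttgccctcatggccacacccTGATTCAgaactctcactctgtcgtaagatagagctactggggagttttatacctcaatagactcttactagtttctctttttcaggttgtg
In Cd274 the capitals are the ISRE core of interferon-regulated genes (GAAANNGAA or its complement), whose upstream end lies 76 bases before the start site. In Slamf7 and Cd80 they are an AP-1 element (TGANTCA), in both cases beginning 42 bases before the start site. Icosl (plus strand, chr10:78069118-78069417) held 1 match, to the kappa-B decamer consensus bound by NF-kB, beginning 111 bases before its start site. Over both strands, 8.56% of all 32851 promoters of this length hold the ISRE core, 7.81% the AP-1 element and 8.46% the kappa-B decamer, so each kind of match is common. None of the 4 held the CARE of ATF4 and CHOP (TGATGNAA, in 3.97% of promoters), the XBP1/ATF6 core (TGACGTG, 2.01%) or the ERSE (CCAAT and CCACG 9 bases apart, 0.119%). The RefSeq start sites of Slamf7 and Cd80 lie 4036 and 3372 bases inside the gene bodies annotated by GENCODE M21, so these windows are not the only possible starts.

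Seen across the set, LPS raised 7 of the 8 transcripts and tunicamycin alone raised 5, none fell in either comparison, and with both agents 5 were above and 1 was below the level with LPS alone. For LPS against control the median log2 fold change of the members was 2.41, against 0.00 over all genes tested, of which 10.5% passed as higher and 7.86% as lower. For tunicamycin against control the medians were 0.85 and 0.03, and 17.9% of all genes passed as higher and 16.6% as lower. For both agents against LPS the medians were 0.60 and 0.00, with 13.8% of all genes higher and 15.1% lower. These comparisons share libraries, and the values for each member are given side by side below. With both agents against control 7 of 8 rose, where 20.7% of all genes passed as higher and 20.2% as lower. Cd86 was the exception for LPS against control and for both agents against control.

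**Figure D1:**
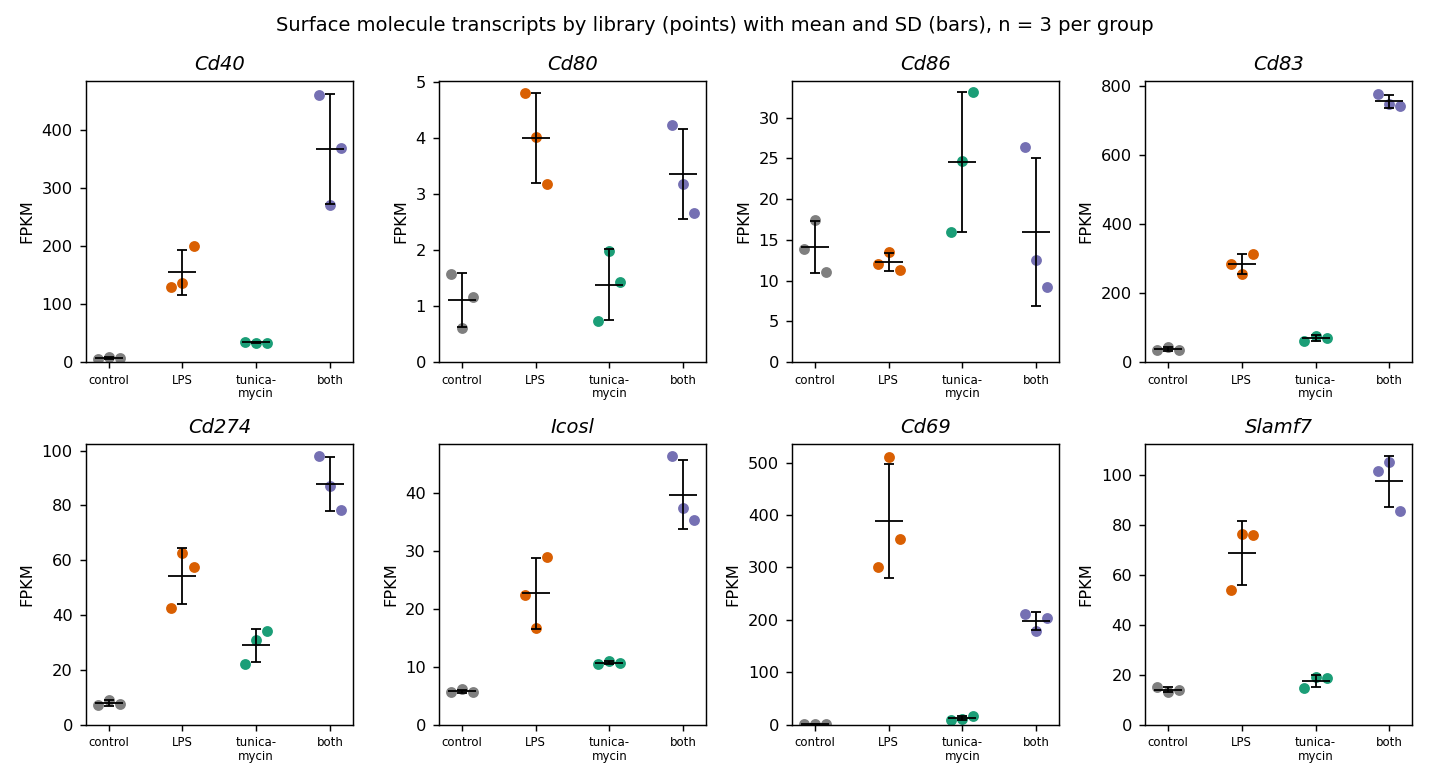
FPKM of the 8 transcripts (y axis, linear, a scale of its own in each panel) in control, LPS, tunicamycin and tunicamycin plus LPS libraries (x axis, both = tunicamycin plus LPS), points being libraries and bars the mean and SD, n = 3. Cd40, Cd83, Cd274, Icosl and Slamf7 were highest with both agents, Cd69 and Cd80 had their highest mean with LPS alone, and Cd86 with tunicamycin alone.

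Cd40, the receptor through which T cell help reaches the macrophage (chromosome 2, 165055627 to 165072948, plus strand), rose with each agent and was highest with both. Its level was 4.72, 7.75 and 7.49 FPKM in the control libraries, 129, 136 and 199.8 FPKM with LPS, 34.4, 33 and 33.4 FPKM with tunicamycin, and 461, 272 and 369.6 FPKM with both. No 2 groups overlapped, and the order was control, tunicamycin, LPS, both. LPS raised Cd40 20.3-fold (log2 4.35 ± 0.20, adjusted p = 4.45e-11) and tunicamycin 4.6-fold (log2 2.20 ± 0.20, adjusted p = 3.48e-07). With both agents it was 2.36-fold above LPS alone (log2 1.24 ± 0.20, adjusted p = 0.000205).

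The transducers behind CD40 were read from a list of 15 genes, all tested. With LPS 9 rose and 0 fell, with tunicamycin 7 rose and 0 fell, and with both agents against LPS 5 rose and 0 fell (median log2 0.21). Of all genes tested, 10.5%, 17.9% and 13.8% rose and 7.86%, 16.6% and 15.1% fell in these comparisons. Traf1, an adaptor recruited to TNF receptors, went from 1.18 ± 1.01 FPKM in controls to 65.5 ± 5.78 with LPS, 4.71 ± 0.165 with tunicamycin and 119 ± 8.53 with both, the 2 groups with LPS differing by log2 0.86 ± 0.27 (adjusted p = 0.0236). Nfkb1 and Relb, subunit genes of NF-kB, were higher with both agents than with LPS by log2 0.91 ± 0.17 and 0.55 ± 0.13. Traf6 stood at 7.29 ± 0.455 FPKM in controls and 11.4 ± 2.89 with both, and passed in none of the 3 comparisons.

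The B7 ligands of CD28 gave other orders of groups than Cd40. Cd80 (chromosome 16, 38455561 to 38496335, plus strand) was the scarcest of the 8 in the LPS-treated groups, at 1.56, 0.602 and 1.16 FPKM in controls, 4.81, 4.02 and 3.19 with LPS, 0.725, 1.98 and 1.43 with tunicamycin, and 4.24, 3.18 and 2.67 with both. The libraries with LPS, alone or after tunicamycin, all lay above those without it, and within each of these pairs of groups the libraries overlapped. LPS raised Cd80 2.4-fold (log2 1.26 ± 0.26, adjusted p = 0.0024). The difference between both agents and LPS was log2 -0.20 (95% interval -0.76 to 0.36, adjusted p = 0.615), and that between tunicamycin and control was log2 0.16 (95% interval -0.39 to 0.72, adjusted p = 0.676). These intervals allow a change of either sign.

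Cd86 (chromosome 16, 36603869 to 36666081, minus strand) was more abundant than Cd80 in every library and was the member that LPS did not raise. Its values were 13.9, 17.4 and 11.1 FPKM in controls, 12, 13.5 and 11.3 with LPS, 16, 24.7 and 33.1 with tunicamycin, and 26.4, 12.5 and 9.17 with both. All groups overlapped except LPS and tunicamycin. The LPS effect was log2 -0.17 (95% interval -0.81 to 0.47, adjusted p = 0.778). Tunicamycin against control gave log2 0.72 ± 0.30, which did not pass (adjusted p = 0.0739, 0.0247 to 0.372 over the alternatives run). It passed without replicate 1 of tunicamycin (adjusted p = 0.0247) and in a fit of those 2 groups alone (adjusted p = 0.0298). With both agents against LPS the difference was log2 0.23 (95% interval -0.41 to 0.87), and it became -0.18 without replicate 1 of tunicamycin plus LPS, the library at 26.4 FPKM.

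Icosl, whose product binds ICOS on T cells (chromosome 10, 78069302 to 78083913, plus strand), gave the same order of groups as Cd40. It stood at 5.56, 6.1 and 5.61 FPKM in controls, 22.5, 16.7 and 28.9 with LPS, 10.4, 11 and 10.7 with tunicamycin, and 46.5, 37.4 and 35.3 with both. No groups overlapped, in the order control, tunicamycin, LPS, both. LPS raised it 3.43-fold (log2 1.78 ± 0.18, adjusted p = 9.6e-07), tunicamycin 1.73-fold (log2 0.79 ± 0.18, adjusted p = 0.00241), and both agents stood 1.75-fold above LPS (log2 0.81 ± 0.18, adjusted p = 0.0028).

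Cd274, the gene of the checkpoint ligand PD-L1 (chromosome 19, 29367455 to 29388095, plus strand), gave the same order of groups without overlap. Its level was 7.07, 9.13 and 7.45 FPKM in controls, 42.7, 62.6 and 57.4 with LPS, 22.3, 30.8 and 34 with tunicamycin, and 97.9, 87.1 and 78.1 with both. It rose 6.17-fold with LPS (log2 2.62 ± 0.17, adjusted p = 4.66e-09) and 3.35-fold with tunicamycin (log2 1.74 ± 0.17, adjusted p = 9.64e-07). With both it was 1.62-fold above LPS (log2 0.70 ± 0.17, adjusted p = 0.00605), a call that was lost with no filter on low values (adjusted p = 0.0608, 0.00446 to 0.0608 over the alternatives). GENCODE places an antisense gene over part of Cd274, and whether the counting used strand is not given, so reads of the 2 cannot be told apart. Pdcd1lg2, which encodes the other PD-1 ligand PD-L2, was not tested, since its highest value in any library was 0.233 FPKM.

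The balance between the checkpoint ligand and the CD28 ligands was followed as the log2 ratio of FPKM + 1 in each library, as a description without a test. Cd274 over Cd86 was negative in all controls (-0.89, -0.86 and -0.51) and positive in every treated library, at 1.75, 2.13 and 2.25 with LPS, 0.46, 0.30 and 0.04 with tunicamycin, and 1.85, 2.71 and 2.96 with both. Cd86 transcripts thus exceeded those of Cd274 per length in controls and were fewer in the treated groups. Cd274 over Cd80 averaged 2.09 ± 0.52 (SD, n = 3) in controls, 3.46 ± 0.48 with LPS, 3.67 ± 0.23 with tunicamycin and 4.36 ± 0.10 with both. Cd86 over Cd80 was 2.85 ± 0.59 in controls and 3.40 ± 0.36 with tunicamycin, and 1.42 ± 0.22 with LPS and 1.85 ± 0.48 with both. Cd80 is so low that the added 1 FPKM compresses its ratios.

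**Figure D2:**
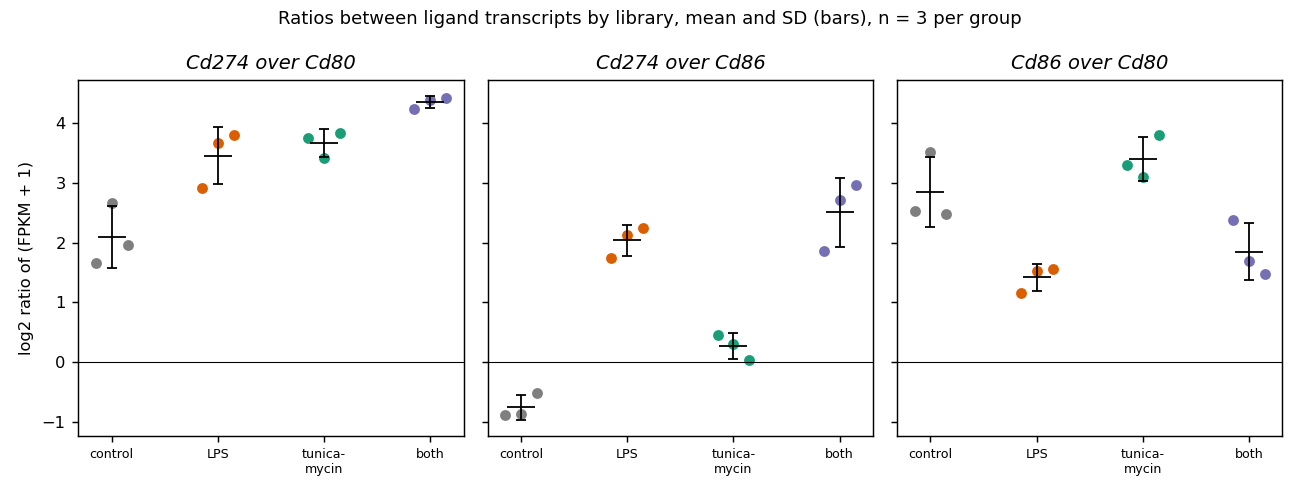
Log2 ratio of FPKM + 1 (y axis) between ligand genes in each library (points) of the 4 groups (x axis, both = tunicamycin plus LPS), with mean and SD (bars), n = 3. Cd274 over Cd86 lay below 0 in the 3 control libraries and above 0 in the other 9, and Cd274 over Cd80 had its highest mean, 4.36, with both agents.

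Among the activation markers, Cd83 (chromosome 13, 43784775 to 43803132, plus strand), whose product stabilises CD86 and MHC class II at the cell surface, had the smallest standard error of the 8. It stood at 33.1, 44 and 33.7 FPKM in controls, 284, 255 and 313 with LPS, 61.2, 76.4 and 70.3 with tunicamycin, and 777, 749 and 741 with both. The 4 groups were well apart, and the 3 libraries with both agents lay within a narrow band. Cd83 rose 7.54-fold with LPS (log2 2.92 ± 0.12, adjusted p = 7.86e-12) and 1.86-fold with tunicamycin (log2 0.90 ± 0.12, adjusted p = 2.09e-05). Tunicamycin before LPS put it 2.67-fold above LPS alone (log2 1.41 ± 0.12, adjusted p = 2.04e-07), rank 154 from the top of the 10311 genes in that comparison, the highest of the 8 members.

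Cd69 (chromosome 6, 129267325 to 129275436, minus strand), an early activation antigen of leukocytes, had the largest LPS response of the set and was the member that fell with tunicamycin before LPS. It was nearly silent in controls, at 0.225, 0.778 and 1.46 FPKM, and reached 301, 511 and 354 FPKM with LPS. With tunicamycin alone it was at 8.73, 10.6 and 16 FPKM, and with both agents at 212, 179 and 204 FPKM. No groups overlapped, and the order was control, tunicamycin, both, LPS. The rise with LPS was 217-fold (log2 7.76 ± 0.24, adjusted p = 2.53e-13), rank 5 of all genes tested, and that with tunicamycin 7.1-fold (log2 2.83 ± 0.24, adjusted p = 1.92e-07), rank 20. Because controls are near 0, these folds depend on the pseudocount, and with 0.1 FPKM in place of 1 the log2 values were 8.95 and 3.91. Both agents against LPS gave a 1.91-fold lower level (log2 -0.93 ± 0.24, adjusted p = 0.00844, 0.00118 to 0.115 over the alternatives). That call was lost with the smaller pseudocount (adjusted p = 0.095), with no filter (0.115) and without LPS replicate 2 (log2 -0.72, adjusted p = 0.0547), the library at 511 FPKM.

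Slamf7 (chromosome 1, 171632403 to 171653035, minus strand), a receptor of the SLAM family that binds itself on neighbouring cells, rose with LPS, and its change with tunicamycin alone did not pass. Its values were 14.9, 13.1 and 14 FPKM in controls, 54.1, 76.3 and 75.9 with LPS, 14.5, 19 and 18.5 with tunicamycin, and 102, 105 and 85.8 with both. Control and tunicamycin overlapped, and the LPS groups stood above them and apart from each other. LPS raised it 4.61-fold (log2 2.20 ± 0.15, adjusted p = 7.13e-09), while tunicamycin gave log2 0.29 (95% interval -0.03 to 0.60, adjusted p = 0.154). With both agents it was 1.42-fold above LPS (log2 0.51 ± 0.15, adjusted p = 0.0169, 0.0132 to 0.101 over the alternatives). This call was lost with no filter (0.0886), without LPS replicate 1 (0.101) and without replicate 2 of tunicamycin plus LPS (0.0582). GENCODE places an antisense gene inside Slamf7, with the same limit on strand as for Cd274. A microRNA gene, Mir7683, also lies inside Slamf7 on the same strand, so strand could not separate its reads.

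Whether tunicamycin changed the response to LPS was tested as the interaction, the LPS effect in tunicamycin-treated cells less that in untreated cells. How long tunicamycin alone was left on the cells is not given. Any longer time with tunicamycin in the group with both agents therefore cannot be told apart from the LPS effect in tunicamycin-treated cells. LPS raised 7 of the 8 members within tunicamycin too (median log2 2.11, where 8.69% of all genes passed as higher and 7% as lower). The interaction passed for 2 members, both negative, against 1.41% of all genes with a positive and 1.96% with a negative interaction. For Cd69 the LPS effect shrank from log2 7.76 to 4.00 ± 0.24, an interaction of -3.76 ± 0.34 (adjusted p = 4.47e-06), the fifth lowest of all genes tested. Over the alternatives it ran from -4.85, with a pseudocount of 0.1, to -3.44, with quantile normalization (adjusted p of 2.74e-06 to 0.00758). For Cd274 it shrank from log2 2.62 to 1.58 ± 0.17, an interaction of -1.05 ± 0.24 (adjusted p = 0.0232, 0.00613 to 0.202 over the alternatives). The Cd274 call was lost with no filter (0.202), without limma's trend (0.0663) and on leaving out any of 6 single libraries. These were control replicate 1 (0.0589), LPS replicates 2 (0.0729) and 3 (0.0655), tunicamycin replicates 2 (0.0671) and 3 (0.0717), and replicate 3 of tunicamycin plus LPS (0.0649).

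The other 6 members did not pass. Cd40 had an interaction of -0.97 ± 0.28 (adjusted p = 0.074), which passed without replicate 1 of tunicamycin plus LPS (-1.15, adjusted p = 0.0285, 0.0285 to 0.467 over the alternatives). Cd83 had a positive one of 0.52 ± 0.17 (adjusted p = 0.109). Icosl was at 0.01 (95% interval -0.52 to 0.54), Slamf7 at 0.22 (-0.22 to 0.67), Cd80 at -0.37 (-1.16 to 0.42) and Cd86 at -0.49 (-1.40 to 0.41). The LPS effect on Cd80 within tunicamycin was log2 0.89 ± 0.26 (adjusted p = 0.0291, 0.0154 to 0.134 over the alternatives). That call was lost with no filter (0.12), without tunicamycin replicate 1 (0.134) or 3 (0.066), and without replicate 1 (0.106) or 2 (0.0532) of tunicamycin plus LPS. For Cd86 within tunicamycin it was log2 -0.66 ± 0.30 (adjusted p = 0.16, 0.01 to 0.595 over the alternatives), which passed without replicate 1 of tunicamycin plus LPS (-1.07, adjusted p = 0.01).

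**Figure D3:**
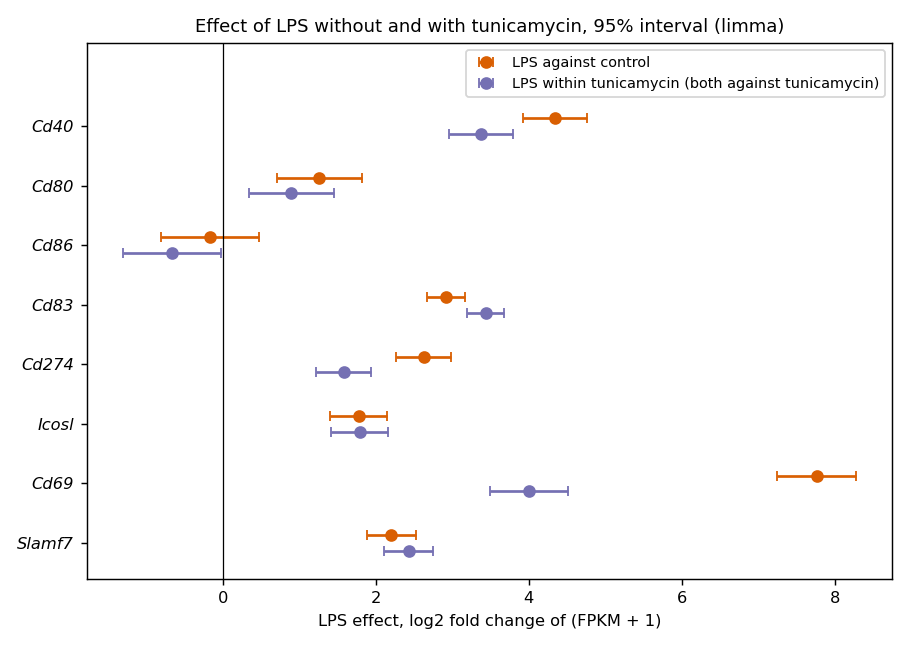
LPS effect on each transcript (x axis, log2 fold change of FPKM + 1, points with 95% intervals from limma) without tunicamycin (LPS against control) and with it (both agents against tunicamycin). The intervals of Cd69 (7.76 and 4.00) and Cd274 (2.62 and 1.58) lie apart, as do those of Cd40 (4.35 and 3.38) and, in the opposite direction, Cd83 (2.92 and 3.43), whose interactions did not pass after adjustment over all genes, and those of Icosl (1.78 and 1.79) nearly coincide.

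The sign of an interaction depends on the scale, so the level with both agents was also set beside the sum of the single effects in FPKM, as a description. The same limit on the time with tunicamycin holds for these sums and products. Cd83 reached 756 FPKM where the LPS and tunicamycin rises added to the control level give 316, an excess of 439.6 ± 20.6 FPKM (SE from the spread of the 4 groups). Multiplying the single effects gives 527 FPKM, also below the measured level. Cd40 reached 367 FPKM, 186 ± 59.2 above the sum of 182 and below the product of 702. Icosl (39.7 FPKM) and Slamf7 (97.5 FPKM) exceeded their sums of 27.6 and 72.1 by 12.1 ± 4.93 and 25.4 ± 9.57 FPKM, and Cd274 (87.7) its sum of 75.3 by 12.4 ± 8.99. Against the products, Slamf7 was above (83 FPKM), Icosl near (39.1 FPKM) and Cd274 below (181 FPKM). Cd69 lay under its sum, at 198 against 399 FPKM, a difference of -201 ± 63.8 FPKM, and under its product of 2696 FPKM. For Cd80 and Cd86 the difference from the sum, -0.91 ± 0.80 and -6.77 ± 7.5 FPKM, was near its error, and their products were 4.56 and 20.9 FPKM.

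**Figure D4:**
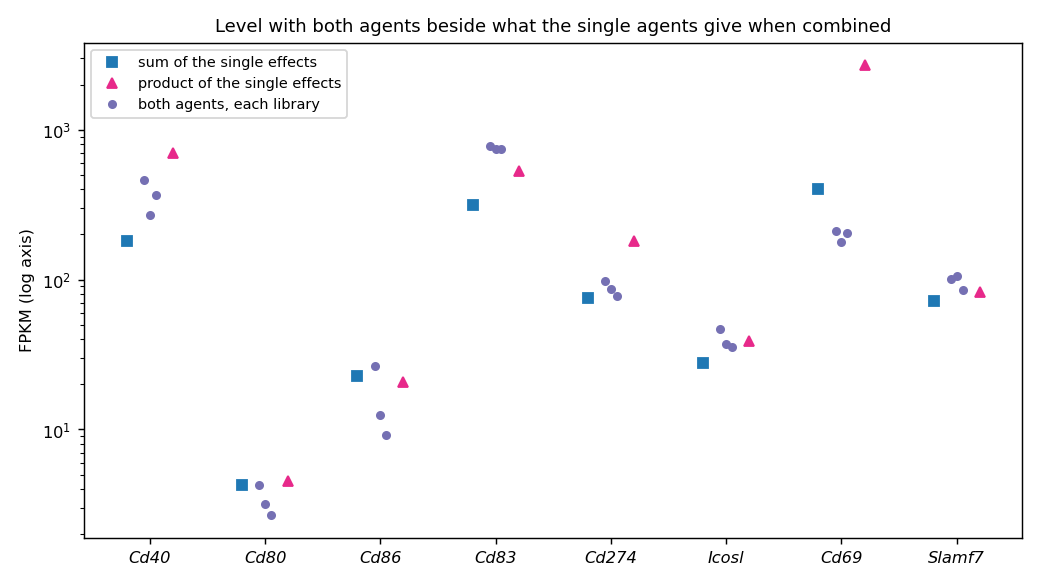
FPKM (y axis, log scale) of each transcript (x axis) in the 3 libraries with both agents (circles), beside the sum (squares) and the product (triangles) of the single-agent effects computed from group means. All libraries of Cd83 and Slamf7 lie above both marks, those of Cd40 and Cd274 between them, and those of Cd69 and Cd80 below both, while those of Icosl lie on either side of the product and those of Cd86 on either side of both marks.

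LPS and tunicamycin as single agents also differed in which members they favoured. With LPS against tunicamycin 7 of 8 members were higher, where 19.6% of all genes passed as higher and 17.5% as lower. The gap was widest for Cd69 (log2 4.93 ± 0.24) and narrowest among these for Cd274 (log2 0.88 ± 0.17, adjusted p = 0.000657). Cd86 was the reverse, 1.86-fold lower with LPS than with tunicamycin (log2 -0.89 ± 0.30, adjusted p = 0.028, 0.00526 to 0.213 over the alternatives). This call on Cd86 was lost with no filter (0.213), without trend (0.0577), without LPS replicate 1 (0.067) or 3 (0.0796), and without tunicamycin replicate 2 (0.0766) or 3 (0.133).

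Across the 12 libraries the members other than Cd86 varied together, which a description by Pearson's r of log2(FPKM + 1) shows. The 12 points are 4 groups of 3, so r mostly reflects the group means. Cd40 and Icosl had r = 0.983 and Cd83 and Icosl 0.984, among the highest pairs. Cd80 was looser, at 0.777 with Cd274 to 0.878 with Slamf7 among the members other than Cd86, and Cd69 and Icosl had 0.896. Cd86 had between -0.286 and 0.0194 with the others. Of all tested genes, Cd40 was most like Slc7a11, a cystine transporter gene (r = 0.996), Clec4e, a lectin receptor gene (0.993), and Lcp2, a signalling adaptor gene (0.99). Cd83 was most like Ets2, a transcription factor gene (0.997), Bcl2a1d, of the BCL-2 survival family (0.994), and the cytokine gene Il6 (0.99). Cd274 was most like Ednrb (0.988), Sp140 (0.984) and Gbp2, an interferon-induced GTPase gene (0.982). Icosl was nearest to Bcl2a1d (0.992), Ncf1, an NADPH oxidase subunit gene (0.989), and Cd83. Cd69 was most like Ifit1, an interferon-induced antiviral gene (0.995, at 331 FPKM with LPS and 187 with both), Slfn2 (0.992) and Rhof (0.99). Slamf7 was nearest to Ampd3 (0.991), Tnfsf15 (0.991) and Tnfaip3, the gene of the NF-kB inhibitor A20 (0.99). The closest to Cd80 were Fam219a (0.948), Nod1 (0.925) and Ncoa5 (0.924), and to Cd86 Eif2ak1 (0.891), Gpr108 (0.883) and Ppip5k1 (0.883).

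Related genes on other lists were counted in the same comparisons. Of all genes tested, 10.5% rose and 7.86% fell with LPS, 17.9% and 16.6% with tunicamycin, and 13.8% and 15.1% with both agents against LPS. Several of the counts below are near these shares. Among other B7 and butyrophilin genes 7 of 9 were in the table and 2 were tested, and both fell with tunicamycin and again with both agents against LPS. These were Cd276 (B7-H3; 12.7 ± 0.899 FPKM in controls, 4.84 ± 0.708 with tunicamycin, log2 -1.24 ± 0.20) and Vsir, listed as 4632428N05Rik, which encodes the inhibitory ligand VISTA (34.6 ± 2.53 and 24.1 ± 0.726 FPKM, log2 -0.50 ± 0.12). With both agents against LPS they were at log2 -0.59 ± 0.20 and -0.65 ± 0.12. Of other TNF-family costimulators 3 of 8 were tested, with 1 rise with LPS, 0 calls with tunicamycin and 2 rises with both agents against LPS. Tnfsf9, the ligand of the T cell receptor 4-1BB, went from 10.3 ± 1.33 FPKM in controls to 89.2 ± 13.8 with LPS and 308 ± 34.7 with both (log2 1.78 ± 0.15 between the last 2), while tunicamycin alone left it at 12.2 ± 2.07. Tnfsf8, the ligand of CD30, was low and rose between the same groups from 0.752 ± 0.0682 to 3.08 ± 1.93 FPKM (log2 1.10 ± 0.39, adjusted p = 0.0464).

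The other SLAM receptors and adaptors (7 of 10 tested) gave 0 rises and 1 fall with LPS, 2 and 5 with tunicamycin, and 1 and 3 with both agents against LPS. Cd48, Cd84 and Slamf9 fell in the last comparison by log2 -0.62 ± 0.11, -0.80 ± 0.09 and -1.20 ± 0.20, where Slamf7 was at 0.51 ± 0.15. Slamf9 went from 61.7 ± 12 FPKM with LPS to 26.6 ± 7.15 with both. Other inhibitory ligands and receptors (15 of 18 tested) gave 8 rises and 1 fall with LPS, 2 and 4 with tunicamycin, and 3 and 3 with both against LPS. In that comparison Havcr2, the gene of the checkpoint receptor TIM-3, and Lgals9, its ligand galectin-9, were lower by log2 -1.11 ± 0.19 and -0.52 ± 0.10, and Cd200r1, an inhibitory receptor of myeloid cells, was higher by log2 1.02 ± 0.20.

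Other activation markers (10 of 12 tested) had 8 rises and 0 falls with LPS, 6 and 2 with tunicamycin, and 4 and 1 with both agents against LPS. Fas, a death receptor, was at 5.96 ± 0.363 FPKM in controls, 50.7 ± 4.27 with LPS, 35.6 ± 2.92 with tunicamycin and 87.9 ± 6.8 with both, and the tetraspanin gene Cd82 and Clec4e also rose between the LPS groups (log2 0.94 ± 0.19 and 0.54 ± 0.13). A list of genes drawn up for the surface turnover of CD86 and PD-L1 (9 tested) had 1 rise and 0 falls with LPS, 1 and 3 with tunicamycin, and 1 and 2 with both against LPS. Whether each gene of that list acts on CD86 or PD-L1 in these cells was not tested. Cmtm6, whose product protects PD-L1 from lysosomal degradation, fell from 48.4 ± 1.18 FPKM in controls to 26.5 ± 4.83 with tunicamycin (log2 -0.86 ± 0.14) and stood at 29.7 ± 2.39 with both, log2 -0.59 ± 0.14 from LPS. Adam10, a sheddase gene, was lower with both than with LPS (log2 -0.71 ± 0.17), and Rfwd2 (Cop1), a ubiquitin ligase gene, was higher (log2 1.61 ± 0.39). Rfwd2 varied widely, at 13.3 ± 5.26 FPKM in controls, 5.7 ± 0.467 with LPS, 9.02 ± 6.51 with tunicamycin and 20.1 ± 6.97 with both.

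**Figure D5:**
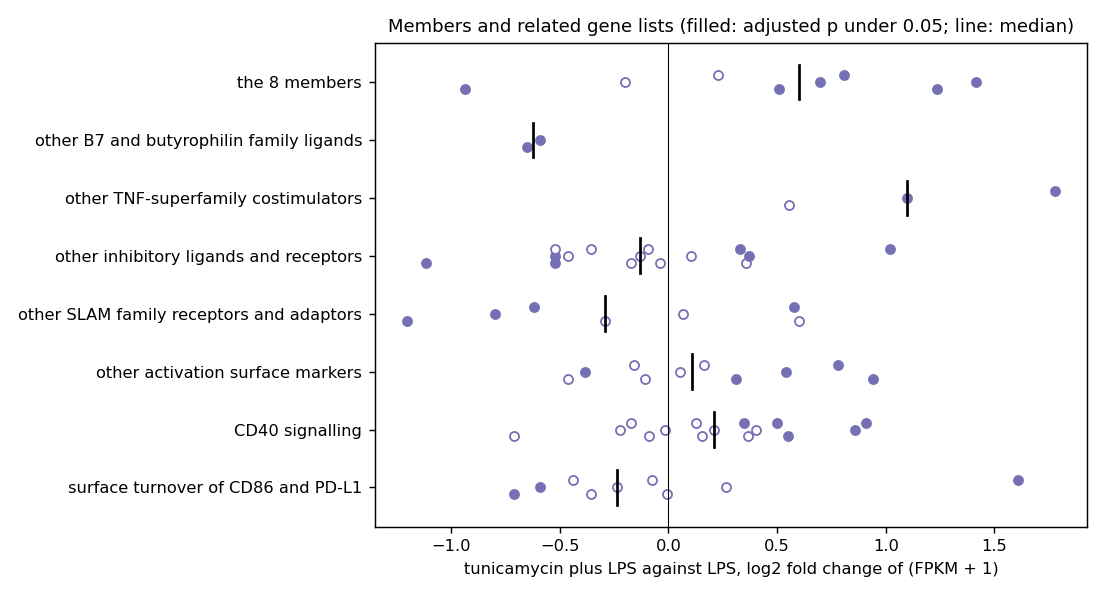
Log2 fold change of FPKM + 1 for tunicamycin plus LPS against LPS (x axis) of the 8 members and of the tested genes of each related list (y axis), filled where the adjusted p was under 0.05, with a line at each median. The members' median was 0.60. Medians of the lists were 1.10 for other TNF-family costimulators (3 genes), 0.21 for CD40 signalling and 0.11 for other activation markers. They were -0.13 for other inhibitory genes, -0.23 for surface turnover, -0.29 for other SLAM genes and -0.62 for other B7 genes (2 genes).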

How the data were processed

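RNA of 12 libraries, 3 per group, was analysed from 1 table of FPKM values that the authors deposited. The tools named per the submitters' processing notes are Cufflinks 2.2.1, TopHat2 2.0.13, SAMtools 0.1.19 and Bowtie2 2.2.3, with mm10 as the build. Annotation and scaling method are not given in the sources used here. No counts could be had from FPKM, so precision rests on the spread between replicates, and a factor common to a whole group would not show.

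Genes at 1 FPKM or more in at least 3 libraries (10311) were fitted with limma 3.58.1 (lmFit, eBayes with trend) in R 4.3.3 on log2(FPKM + 1), with 1 mean per group over all 12 libraries. The 7 contrasts were the 6 pairs of groups and the interaction, and p-values were adjusted by Benjamini-Hochberg over all genes tested. The method was tested on simulated data. The 8 members, the 7 related lists and the 6 marker lists were chosen with earlier results of these data known, and 1 marker and the sum of its list are not reported here. Named genes were all members, the 3 genes most correlated with each, and from each list up to 3 passing genes with the largest change between both agents and LPS. Pdcd1lg2 was always named, and Traf6 was chosen after its values were seen. Coordinates are from GENCODE M21 (GRCm38, the build of mm10). Alternatives were leaving out each library, quantile normalization, median-of-ratios scaling, the replicate number as a block, a fit without trend, a fit of each contrast's own samples, 0.1 FPKM as pseudocount, and a filter raised to 5 FPKM or dropped. Figures were drawn with matplotlib 3.10.9 in Python 3.11.15.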

Additional observations from a re-analysis of the deposited data

Results flagged for a closer look

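In 2 of the 8 members the effect of LPS differed between cells with and without tunicamycin by the limma interaction test. Of all genes tested, 1.41% passed with a positive and 1.96% with a negative interaction. For Cd69 the difference was log2 -3.76, with an LPS effect of log2 7.76 without and 4.00 with tunicamycin. For Cd274 it was log2 -1.05, with LPS effects of log2 2.62 and 1.58. The time with tunicamycin alone is not given, so a difference in that time cannot be told apart from these effects. The Cd274 call was less secure, being lost with no filter (adjusted p = 0.202), without limma's trend (0.0663) and on leaving out some single libraries, as detailed above. Tunicamycin alone raised both genes, to 11.8 ± 3.76 and 29 ± 6.05 FPKM (mean ± SD, n = 3). Between the groups with LPS they went opposite ways, Cd69 from 388 ± 109 to 198 ± 17.1 FPKM and Cd274 from 54.2 ± 10.3 to 87.7 ± 9.91 FPKM with tunicamycin. The cause was not tested.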

How the results depend on the processing

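Over 56 fold changes of single members, 817 values were recomputed, of which 776 kept direction and call, 26 lost the call, 4 gained it and 11 changed sign. All sign changes were in values that had not passed. Of 42 calls, 36 kept direction and call under every alternative that gave a value. With no filter, members past the threshold for both agents against LPS went from 6 to 3, and for the interaction from 2 to 1. Without trend the interaction had 1 member, and leaving out each library gave 1 to 3. The replicate block (number as a factor) left all 7 counts of members as they were, and same-numbered libraries of different groups correlated in their deviations with r of -0.0391 to 0.0945, so the numbers were not taken to pair the samples. Among the sign changes, quantile normalization took Cd86 with both agents against control to -0.020, and a pseudocount of 0.1 took the Icosl interaction to -0.054. On leaving out each library, Cd80 with tunicamycin ran from -0.020 to 0.38, Cd86 with both agents from -0.18 to 0.53 against LPS and from -0.35 to 0.37 against control, and the Icosl interaction from -0.18 to 0.20. A filter at 5 FPKM removed Cd80. Over all genes, no filter lowered the calls for both agents against LPS from 2978 to 1967, against tunicamycin from 1618 to 1031, and for the interaction from 347 to 152. They were 1064 against tunicamycin without tunicamycin replicate 2 and 229 for the interaction without tunicamycin replicate 3. Quantile normalization moved the rises, as a percentage of all calls, from 55.4% to 44.9% for both agents against tunicamycin, from 57.2% to 48.0% for LPS against control, from 52.9% to 46.5% for LPS against tunicamycin and from 50.6% to 44.1% for both agents against control. The cause was not tested. Depth is unknown, so count noise in Cd80 and in the control values of Cd69 could not be assessed beyond the replicate spread. Their folds also depend on the pseudocount. With 0.1 FPKM in place of 1, Cd80 with LPS went from log2 1.26 to 1.83 and Cd69 with tunicamycin from 2.83 to 3.91.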

Other observations

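Some related surface genes, chosen after their values were seen, had patterns of their own. Pvr, a ligand of the checkpoint receptor TIGIT, rose with LPS from 5.85 ± 2.22 to 31.3 ± 9.78 FPKM (log2 2.26 ± 0.24) and stood at 6.1 ± 0.892 with tunicamycin and 23.6 ± 2.1 with both. Cd200, the ligand of CD200R1, went from 1.97 ± 1.68 to 12.2 ± 4.02 FPKM with LPS (log2 2.34 ± 0.42), while Cd200r1 fell from 36.7 ± 8.16 to 13.5 ± 3.97 FPKM (log2 -1.40 ± 0.20) and rose with tunicamycin to 77.7 ± 11.9 FPKM (log2 1.07 ± 0.20). Cd44, a hyaluronan receptor, rose with LPS (log2 0.87 ± 0.11) and fell with tunicamycin (log2 -0.89 ± 0.11). March1, whose product removes CD86 from the surface, fell with tunicamycin from 2.41 ± 0.431 to 0.581 ± 0.166 FPKM (log2 -1.11 ± 0.23).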
